A study of Danio rerio with 27 samples.

Results

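The genes described here are the 97 of 18336 measured genes that stood highest above the other cell types in EGFP-positive control cells of the zebrafish liver. They were chosen from the 9 reporter-positive control libraries by ranking each gene on the mean of the EGFP-positive libraries minus the larger of the dsRed-positive and mCherry-positive means. The first 100 genes were taken, and hmgcra, cyp51 and hmgcs1, which held ranks 28, 38 and 52, were then set aside. The gene fasn was also to be set aside, but it was at rank 169 and so not among the 100. Because the EGFP-positive control values chose the genes, those values are given as a description without a test.

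The libraries came from adult females of 3 reporter lines in the AB background. The line Tg(hand2:EGFP) marks hepatic stellate cells (HSCs) through the hand2 promoter, Tg(fabp10a:dsRed) marks hepatocytes (HEPs) through that of fabp10a, and the endothelial cells (ECs) were those of Tg(kdrl:ras-mCherry). The fish received intraperitoneal sterile water (the methods also name saline) or the hepatotoxin thioacetamide (TAA) at 500 mg/kg, injected 6 times in 2 weeks. Each library was made from 100000 sorted cells, and there were 3 libraries in each of 9 groups. For every line these were cells with the reporter from control fish, cells without it from control fish, and cells with the reporter from TAA fish, called below for example EGFP-positive control, EGFP-negative and EGFP-positive TAA cells. Values are regularized logarithms (rlog) of read counts, on the log2 scale, so that a difference of 1 is a 2-fold difference, and the rlog draws genes with few reads towards their own mean. The labels do not say whether the 3 libraries of a group came from separate fish. The paper counts 6 control fish in all, fewer than the 9 reporter-positive control libraries. By that count not every control library can be a separate fish, and p-values here measure only the spread between these libraries. In sorted bulk cells, fewer cells of a type and less RNA per cell cannot be told apart.

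HSCs lie between hepatocytes and the endothelium of the sinusoids and store vitamin A as retinyl esters in lipid droplets. In the injured liver they become myofibroblast-like, contract and lay down collagen. Genes commonly used to recognise them cover retinoid storage, the platelet-derived growth factor receptors, contractile proteins and the fibrillar collagens.

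None of the 97 genes was on the list of 20 stellate markers found in the table, and none was among 109 matrix genes or 14 retinoid genes. The mean value of the stellate markers was 2.64, 2.40 and 1.72 in the 3 EGFP-positive control libraries. It was 2.14 to 2.42 in the dsRed-positive ones and 2.14 to 2.64 in the mCherry-positive ones. The hepatocyte markers averaged 12.85, 12.99 and 11.95 in EGFP-positive and 12.32 to 12.91 in dsRed-positive control libraries. These ranges overlap for both lists. The gene hand2, whose promoter drives EGFP, was at -0.13, 1.39 and 0.77 in EGFP-positive control libraries. In dsRed-positive ones it was at -0.14, -0.29 and -0.27 and in mCherry-positive ones at -0.69, -0.73 and -0.63. Every EGFP-positive library was thus above the other reporter-positive control libraries, narrowly so for replicate 1. The reporter-negative libraries overlapped with the EGFP-positive ones. They had 0.78, -0.20 and -0.57 in EGFP-negative, 1.73, -0.34 and 0.61 in dsRed-negative and -0.36, 0.67 and 1.09 in mCherry-negative cells. Of the 20 stellate markers, 8 had their highest mean in EGFP-positive control cells, among them col1a1a, dcn and col1a1b with distances of 1.23, 1.07 and 1.09 to the next cell type, and each of these 3 overlapped with the dsRed-positive libraries. Since none of the 97 is a stellate marker, they are called here the EGFP-control genes after the libraries that chose them.

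Some libraries stood apart from their labels in ways that touch every comparison below. EGFP-negative replicate 3 had a hepatocyte marker mean of 6.84, against 12.86 in both of the others, and its means of endothelial (6.01 against 2.35 and 2.18), pancreas (12.04 against 5.77 and 8.53) and leukocyte markers (5.62 against 2.46 and 2.67) were higher. The mCherry-positive TAA libraries had endothelial marker means of 0.55 to 0.91, where the mCherry-positive control libraries had 7.41 to 7.75, and hepatocyte marker means of 12.97 to 13.40 in place of 8.45 to 9.67. In EGFP-positive TAA libraries the stellate markers reached 3.32 to 3.74, above the 1.93 to 2.30 of dsRed-positive TAA libraries, and 13 of 20 were called higher in EGFP-positive TAA cells than in the mean of the other TAA cells, where 4.47% of all genes were. Results that rest on EGFP-negative replicate 3 are given with and without it.

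The EGFP-control genes form a mixed set. By known role, 6 encode secreted proteins, 9 act in adhesion and signalling, 8 in the endoplasmic reticulum (ER) and the secretory pathway, 8 in lipid and sterol metabolism, 11 are other metabolic enzymes and 7 are noncoding RNAs, while 24 have a symbol outside these groups and 24 have no symbol. The median distance to the next highest cell type was 2.45 on the log2 scale, from 4.86 for fam131ab to 1.95 for zgc:158417. At the edge of the set, TRIB2 (1.96), RNaseP_nuc (1.95) and zgc:158417 (1.95) were inside, and ENSDARG00000112275 (1.95), U4 (1.93) and ACBD7 (1.93) were outside. For 77 of the 97 genes every EGFP-positive control library lay above every other reporter-positive control library, where 6.10% of all genes did so, and this is a product of the choice.

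**Figure D1:**
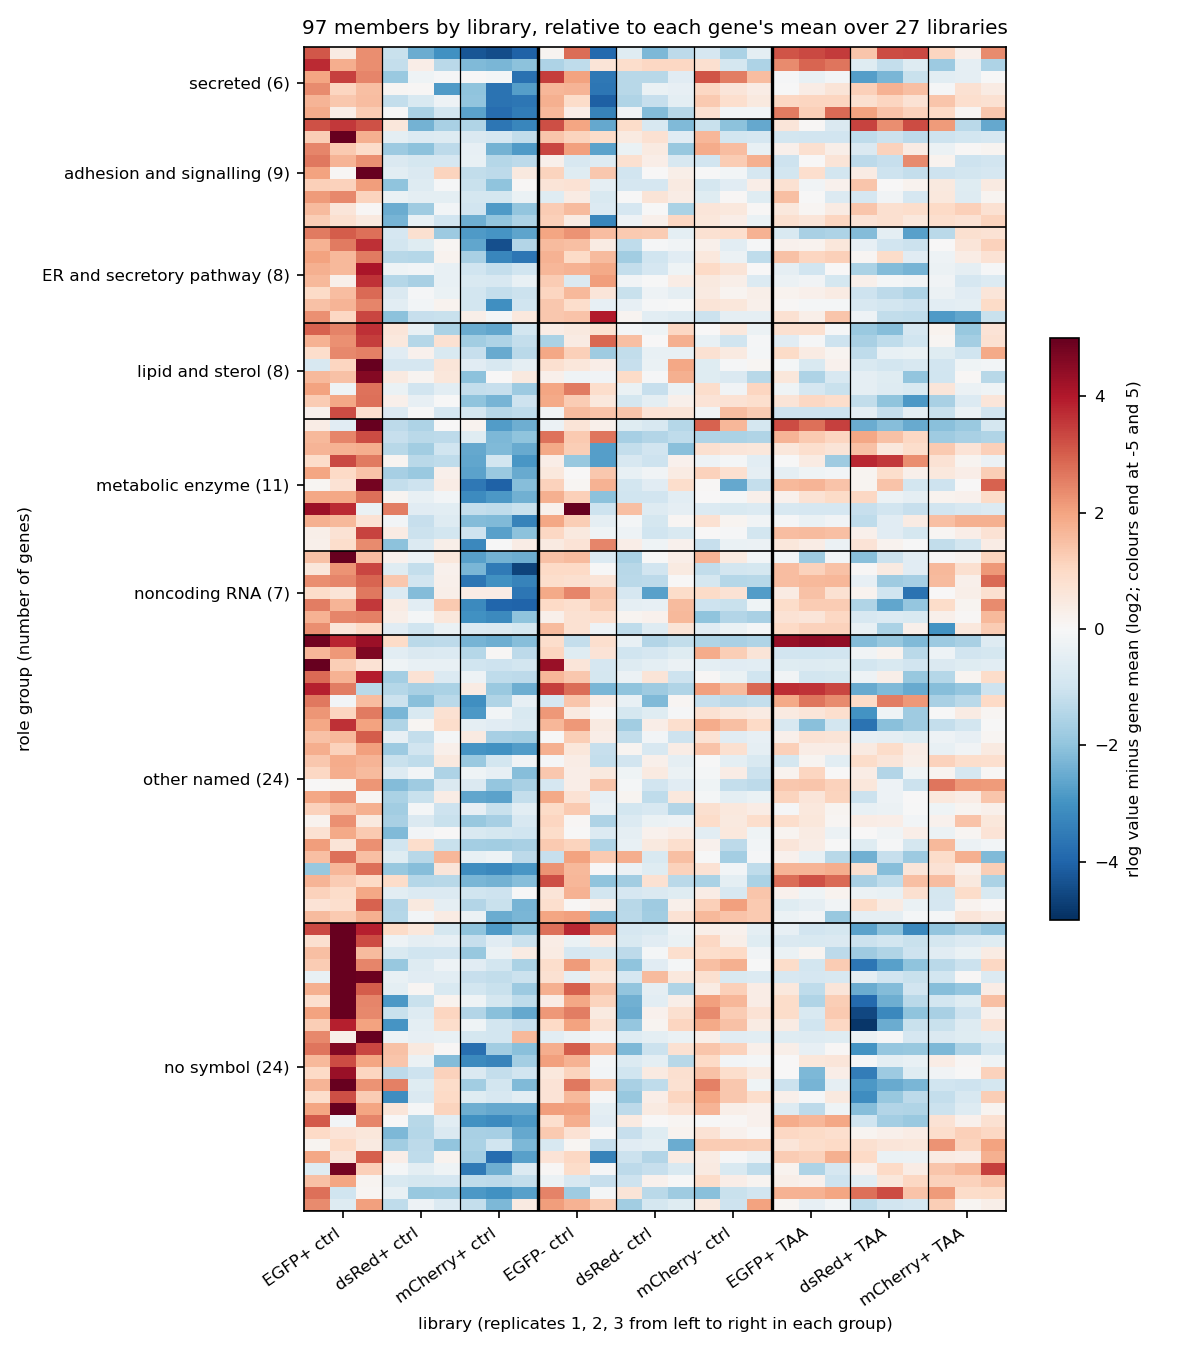
Heat map of the 97 EGFP-control genes (lines, grouped by role) in the 27 libraries (columns, 3 replicates in each of 9 groups). Colour is the rlog value of a gene less its average in the 27 libraries, on the log2 scale. The EGFP-positive control columns at the left are red because they chose the genes, replicate 2 is darkest in the genes without a symbol, and replicates 1 and 2 of the EGFP-negative group are red for many genes.

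The set leaned on single libraries. For 27 of the 97 genes (27.8%, where 2.21% of all genes did so) the highest EGFP-positive control library was at least 2 above the next, which was replicate 2 for 14 genes, replicate 3 for 11 and replicate 1 for 2. A single high library raises the mean used for the ranking, so this share is in part a product of the choice. Of the 14 genes led by replicate 2, 11 had no symbol. The 11 led by replicate 3 included gck, dnajb9b, mvda, ebp, eevs and EGLN3. When the ranking was repeated without each EGFP-positive control library in turn, 34 genes were taken each time, among them 5 of the 6 secreted proteins but 1 of the 8 lipid and sterol genes and 1 of the 7 noncoding RNAs. With medians in place of means, 58 of the 97 genes were taken.

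Whether these genes also marked EGFP-positive cells after TAA was tested in the 9 TAA libraries, which took no part in the choice. A limma fit with Benjamini-Hochberg adjustment called 15 of the 97 genes (15.5%) higher in EGFP-positive TAA cells than in the mean of dsRed-positive and mCherry-positive TAA cells, where 4.47% of all genes were called higher. It called 3 genes (3.09%) lower, where 2.36% of all genes were called lower. At an unadjusted p under 0.05 there were 34 genes higher and 8 lower, where 11.7% and 9.66% of all genes were. The median difference was 0.38 over the 97 genes and 0.01 over all genes, and for 15 genes (15.5%, against 5.76% of all genes) every EGFP-positive TAA library lay above the other 6. For 6 genes the call held against each of the other cell types (6.19%, against 1.98% of all genes) and these were fam131ab, si:ch1073-181h11.5, gck, NELL2, ENSDARG00000098856 and EGLN3. Against dsRed-positive TAA cells alone 22 genes were higher and 2 lower (3.86% and 2.43% of all genes were), and against mCherry-positive TAA cells alone 9 were higher and 3 lower (5.43% and 2.71% of all genes were). Leaving out replicate 1 or 2 of all groups, or EGFP-positive TAA replicate 1 alone, gave 6 genes called higher than the mean of the others, and leaving out EGFP-positive TAA replicate 3 gave 8.

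Whether they also marked the hand2 line outside the EGFP gate was tested in the 9 reporter-negative control libraries, which took no part in the choice either. They came, however, from control fish of the same lines as the choosing libraries. Whether EGFP-negative and EGFP-positive control libraries shared fish is not stated, so the test may not be independent of the choice. With all libraries, 3 of the 97 genes (3.09%) were called higher in EGFP-negative cells than in the mean of dsRed-negative and mCherry-negative cells, where 0.0873% of all genes were, and 0 were called lower (0.224% of all genes were). At an unadjusted p under 0.05 there were 24 genes higher and 0 lower, where 4.13% and 7.0% of all genes were. Without EGFP-negative replicate 3 the count was 36 (37.1%) against 3.96% of all genes, again with 0 lower (8.93% of all genes were), at a median difference of 1.28 for the 97 genes and -0.15 for all genes. At an unadjusted p under 0.05 that fit gave 56 genes higher and 1 lower, where 9.06% and 18.3% of all genes were. Against dsRed-negative cells alone it called 42 genes higher (4.12% of all genes were) and against mCherry-negative cells alone 14 (2.62% of all genes were). The call held against each of the other lines for 12 genes in that fit (12.4%, against 1.27% of all genes) and for 2 with all libraries (2.06%, against 0.0273%). The EGFP-negative mean was above both others for 63 of the 97 genes (30.9% of all genes) with replicate 3 and for 74 (29.0%) without it. Without EGFP-negative replicate 1, or without replicate 1 or 2 of all lines, the count was 0, so that it rested on which libraries were in the fit.

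**Figure D2:**
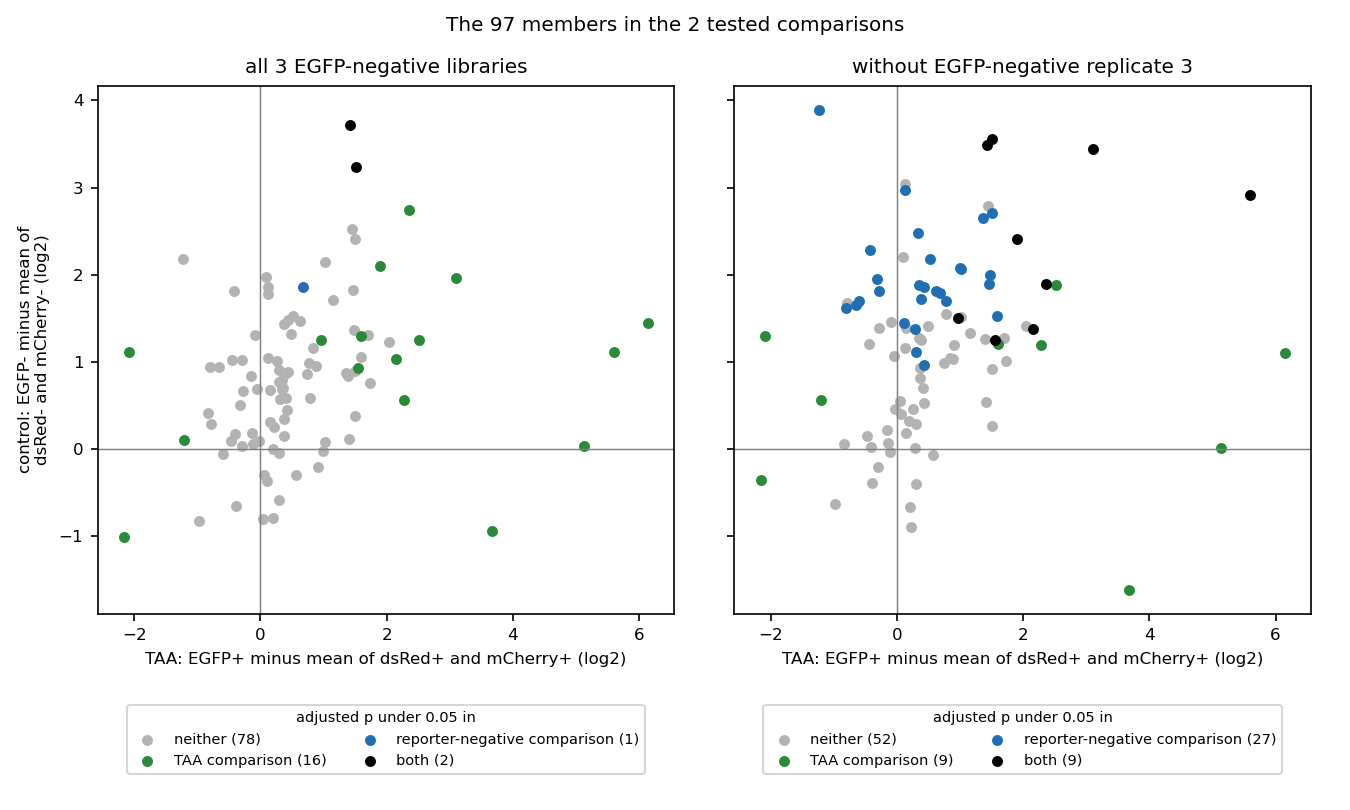
Differences of the 97 EGFP-control genes in the 2 tested comparisons, with EGFP-positive TAA cells minus the mean of the other TAA cells on the horizontal axis and EGFP-negative control cells minus the mean of the other reporter-negative cells on the vertical axis, both in log2 units. Each point is a gene, coloured by the comparison in which it passed the threshold; the left panel has all EGFP-negative libraries and the right panel leaves out replicate 3, where 9 genes passed in both and 27 only in the reporter-negative comparison.

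Among the genes called higher after TAA, fam131ab (ENSDARG00000104296) had the longest distance in the control libraries and kept it. Its values were 6.07, 5.06 and 5.53 in EGFP-positive control cells, 2.22, -0.09 and -0.05 in dsRed-positive and -1.06, -1.19 and -0.87 in mCherry-positive control cells. After TAA they were 5.60, 5.75 and 5.69 in EGFP-positive cells, -0.92, -0.62 and -0.94 in dsRed-positive cells and -0.57, -0.37 and 0.62 in mCherry-positive cells. The EGFP-positive TAA libraries lay far above the other 6, which did not overlap with them. Against the mean of the others it was 6.15 higher (limma, standard error 0.31, adjusted p = 6.8e-06), and the gene was called under all 11 alternatives that could be run for it. In EGFP-negative cells it was at 2.12, 0.05 and 2.11, all below the EGFP-positive libraries, and the difference from the other reporter-negative cells did not pass the threshold (1.45, standard error 0.50, adjusted p = 0.325).

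A comparable pattern was seen for si:ch1073-181h11.5 (ENSDARG00000104718), whose role is not given in the sources used here. Its TAA values were 5.66, 5.56 and 5.30 in EGFP-positive cells, -0.54, -0.23 and -0.56 in dsRed-positive cells and -0.18, 0.03 and 0.92 in mCherry-positive cells. It was 5.60 higher than the mean of the others (limma, standard error 0.31, adjusted p = 1.03e-05), and again the groups were far apart. In control cells it was less regular, at 5.84, 4.52 and 0.61 in EGFP-positive and 5.42, 4.75 and -0.33 in EGFP-negative libraries, so that replicate 3 was low on both sides of the gate. In mCherry-negative libraries it was at 4.01, 3.54 and 4.84, while dsRed-negative libraries had at most 0.45. Without EGFP-negative replicate 3 it was higher in EGFP-negative cells than in the mean of the other lines (difference 2.92, standard error 0.46, adjusted p = 0.00221). In that limma fit it passed against dsRed-negative cells alone (4.88, adjusted p = 0.000419) but not against mCherry-negative cells alone (0.95, adjusted p = 0.3). With replicate 3 the difference from the mean of the other lines was 1.11 (adjusted p = 0.756).

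The secreted members are ligands, hormones and plasma proteins. NELL2 (ENSDARG00000090690), a secreted glycoprotein with epidermal growth factor repeats, was at 5.31, 3.40 and 3.94 in EGFP-positive control cells and 3.95, 4.49 and 4.25 after TAA. In dsRed-positive TAA cells it was at 0.97, 0.40 and 0.94 and in mCherry-positive TAA cells at -0.21, 1.15 and 0.07. The EGFP-positive TAA libraries stood clear of both other groups (difference 3.67, standard error 0.36, adjusted p = 0.000233 from limma). In EGFP-negative cells it was at 0.07, 0.34 and 2.24, below the EGFP-positive libraries and below dsRed-negative cells, which had 2.49, 2.61 and 2.64. The call held under all 11 alternatives.

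None of the other 5 secreted members passed the test after TAA (limma). Over all 6 an unadjusted p under 0.05 was reached by 4 upwards and 1 downwards, where 11.7% and 9.66% of all genes did so. The gene ihha (ENSDARG00000058733), which encodes the ligand Indian hedgehog, was at 6.75, 5.46 and 5.89 in EGFP-positive control cells. After TAA it was at 4.35, 4.73 and 5.01 in EGFP-positive cells, 5.55, 6.12 and 5.87 in dsRed-positive cells and 4.32, 5.15 and 4.78 in mCherry-positive cells. The EGFP-positive libraries were thus below all dsRed-positive ones and overlapped with the mCherry-positive ones. Against the mean of both the difference was -0.60 (limma, standard error 0.23, adjusted p = 0.156), and against dsRed-positive cells alone it was -1.15 (adjusted p = 0.0296).

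The gene angptl8 (ENSDARG00000097571), which encodes a secreted liver protein, was at 7.58, 6.16 and 0.58 in EGFP-negative cells, and ihha was at 6.04, 6.07 and 0.78. Both therefore had the same low replicate 3. Without it they were above the mean of the other reporter-negative cells by 2.08 (standard error 0.45, adjusted p = 0.011) and 1.70 (standard error 0.33, adjusted p = 0.0065), and with it the differences were -0.02 and -0.06. In the fit without it, the limma differences from dsRed-negative cells alone were 3.84 (adjusted p = 0.000961) and 2.40 (adjusted p = 0.00222). From mCherry-negative cells alone they were 0.31 (adjusted p = 0.775) and 1.01 (adjusted p = 0.115), which did not pass. The apolipoprotein gene apoa4b.2 (5.53, 4.24 and 0.57) and the secreted ribonuclease gene rnasel2 (4.68, 7.37 and 0.68) had the same low replicate. The 6 secreted members averaged 5.70, 5.60 and 1.55 in the EGFP-negative libraries, which goes with the hepatocyte marker means of 12.86, 12.86 and 6.84 given above, and the part of these cells in the result was not tested. After TAA, rnasel2 was at 7.68, 7.86 and 8.04 in EGFP-positive cells and at 4.80 to 7.85 in the other 6 libraries, and its difference did not pass the threshold (1.36, standard error 0.49, adjusted p = 0.141).

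**Figure D3:**
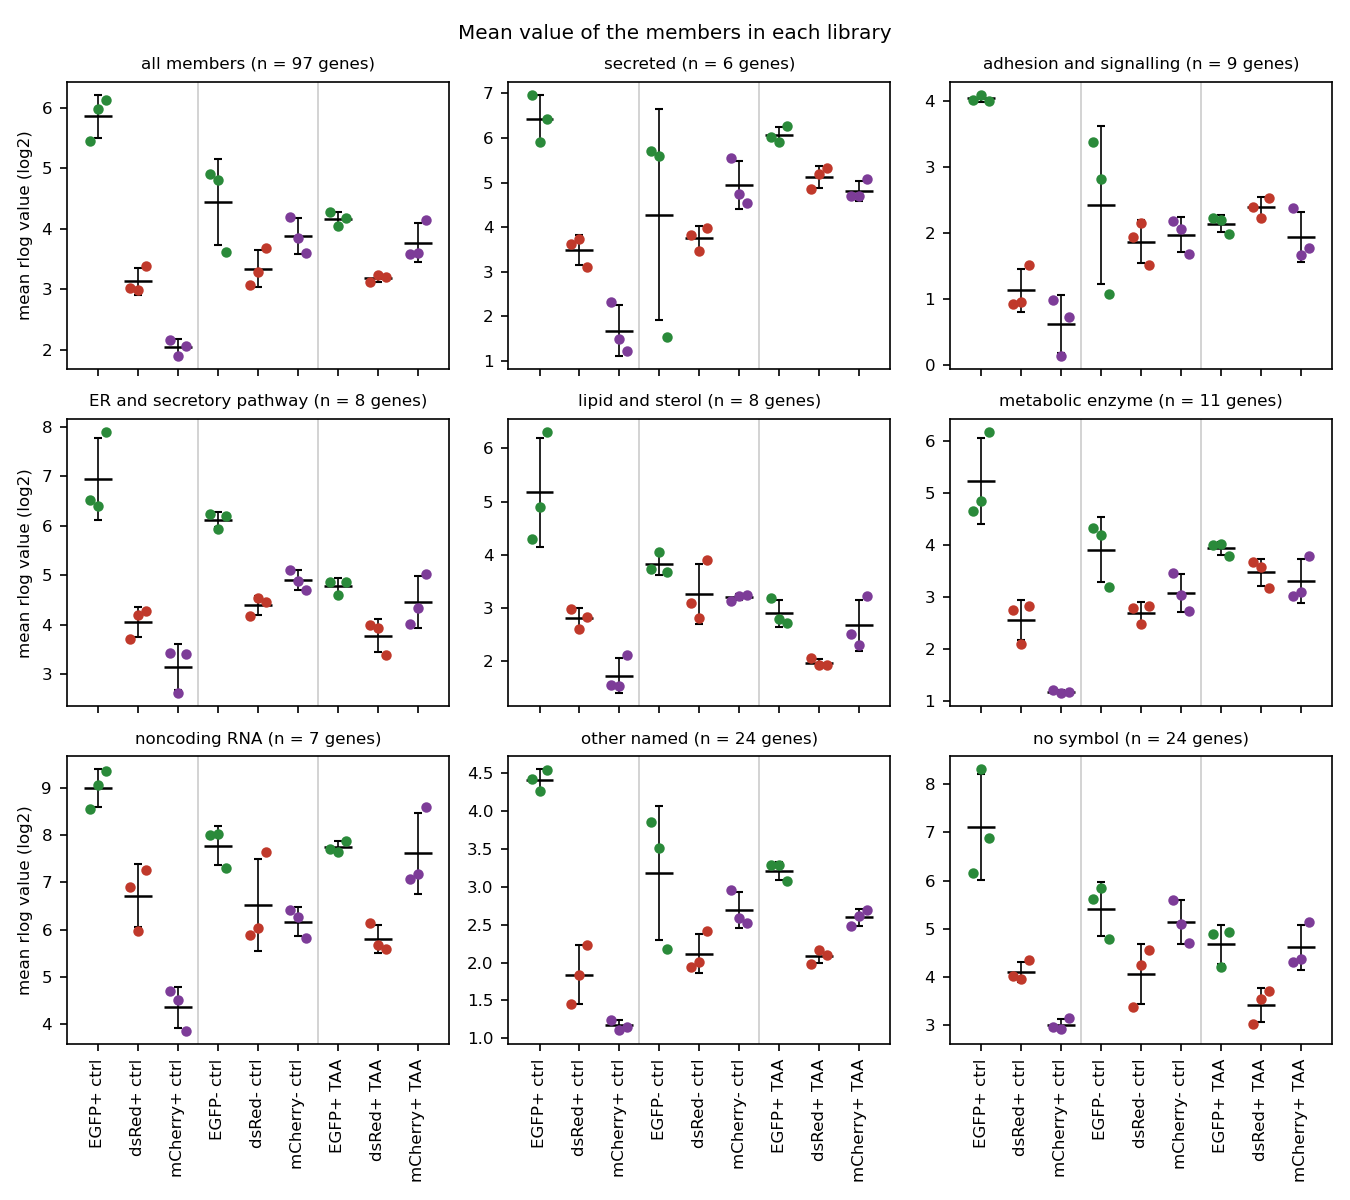
Mean rlog value (log2, vertical axis) of all 97 EGFP-control genes and of each role group in each library. Points are libraries, with replicates 1 to 3 from left to right, lines are group means and bars are SD (n = 3). The 6 secreted members fell to 1.55 in EGFP-negative replicate 3, and the mean of the 24 genes without a symbol was 8.31 in EGFP-positive control replicate 2.

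Of the 9 adhesion and signalling members, limma called 0 in either direction after TAA (4.47% of all genes were higher and 2.36% lower). At an unadjusted p under 0.05 there were 0 higher and 1 lower, where 11.7% and 9.66% of all genes were. FAT3 (ENSDARG00000087709), an atypical cadherin, was even in the EGFP-positive control libraries, at 6.51, 6.85 and 6.50 in EGFP-positive cells, 3.89, 0.97 and 1.71 in dsRed-positive cells and 1.82, -0.29 and 0.05 in mCherry-positive cells. After TAA it was at 3.92, 3.38 and 2.61 in EGFP-positive and 6.71, 5.64 and 6.61 in dsRed-positive cells, which do not overlap. The difference from dsRed-positive TAA cells was -3.02 and did not pass the threshold (adjusted p = 0.102 from limma), and mCherry-positive TAA cells spread from 0.77 to 5.47. In EGFP-negative cells FAT3 was at 6.54, 5.29 and 0.78, and without replicate 3 it was 3.89 higher than in the other reporter-negative cells (standard error 0.72, adjusted p = 0.0052). With all libraries the difference was 2.18 (limma, standard error 1.19, adjusted p = 0.559), and only 2 of 12 alternatives made the call.

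The receptors of this group took different courses. The Wnt receptor gene fzd5 and HJV, a co-receptor of bone morphogenetic proteins that controls hepcidin in mammals, differed after TAA. HJV was at 4.54 to 5.14 in all 9 TAA libraries, whereas fzd5 was at 4.81, 4.36 and 4.71 in EGFP-positive cells and at 5.05 to 5.66 in the other 6, which do not overlap, and its difference of -0.65 did not pass the threshold (limma, standard error 0.19, adjusted p = 0.0707). The membrane progestin receptor gene paqr7a spread from 2.91 to 4.89 after TAA, with no cell type apart. The gene gabrr2a, a subunit of the GABA-A-rho receptor, was at 6.75 in EGFP-positive control replicate 2 and at 1.14 and 1.68 in the others, and the ephrin receptor gene ephb1 was at 5.74 in replicate 3 and at 2.20 and 0.24 in the others. These are single-library values, and both genes were at most 1.04 in every TAA library. The gene mdga2a, of a family of cell adhesion proteins, was at 3.27, 2.32 and 2.89 in EGFP-positive control cells and at 0.87, -0.16 and -0.03 in EGFP-negative cells.

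The ER and secretory pathway members encode chaperones, folding enzymes and a regulator of secretory cells. All 8 had every EGFP-positive control library above the other control cell types, where 6.1% of all genes did so. That is a product of the choice, and it held for 77 of the 97 genes. Of the 8, 7 were highest in replicate 3, as were 5171 of the 18336 genes. The chaperone gene hspa5 (ENSDARG00000103846), also known as BiP, was at 11.04, 11.63 and 12.93 in EGFP-positive control cells and at 11.16, 11.73 and 10.69 in EGFP-negative cells. In dsRed-negative cells it was at 8.99, 9.84 and 9.64 and in mCherry-negative cells at 10.54, 10.25 and 10.38, all below the EGFP-negative libraries. EGFP-negative cells were 1.26 above the mean of both with all libraries (limma, standard error 0.31, adjusted p = 0.166) and 1.51 without replicate 3 (standard error 0.22, adjusted p = 0.00143).

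This group was high in EGFP-negative cells too, replicate 3 included. The means of the 8 genes were 6.22, 5.94 and 6.19 in the EGFP-negative libraries, 4.17 to 4.54 in dsRed-negative and 4.71 to 5.11 in mCherry-negative ones, and without replicate 3, 6 of the 8 were called higher, where 3.96% of all genes were. With all libraries 1 of the 8 was called higher, where 0.0873% of all genes were. The ER co-chaperone gene dnajb9b (ENSDARG00000016886) was at 6.44, 6.54 and 6.67 in EGFP-negative cells, 3.61 to 4.57 in dsRed-negative and 4.81 to 5.79 in mCherry-negative cells, and was called with all libraries (difference 1.86, standard error 0.30, adjusted p = 0.0451). That call was lost in 8 of 12 alternatives, and against mCherry-negative cells alone dnajb9b did not pass (limma, 1.21, adjusted p = 0.262). The peptidyl-prolyl isomerase gene fkbp11 was at 7.24, 7.17 and 6.06, and bhlha15 (Mist1), a transcription factor of secretory cells in mammals, was at 5.90, 5.15 and 5.78, with differences without replicate 3 of 1.86 (standard error 0.32, adjusted p = 0.00336) and 2.06 (standard error 0.49, adjusted p = 0.0169). With all libraries these differences were 1.48 (limma, adjusted p = 0.176) and 2.15 (adjusted p = 0.105), which did not pass. In the fit without replicate 3, hspa5, fkbp11 and ERO1A also passed against each of the other lines. The other called members were dnajb9b, bhlha15 and zgc:162964. They passed against dsRed-negative cells alone but not against mCherry-negative cells alone (limma, adjusted p = 0.0676, 0.0781 and 0.182). The pancreas marker mean was 5.77, 8.53 and 12.04 in the same EGFP-negative libraries, 4.40 to 7.50 in dsRed-negative and 3.50 to 4.15 in mCherry-negative ones, and the part of these cells in the result was not tested.

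After TAA the ER members were lower in EGFP-positive cells, with a median of -2.09 against control, which is in part built in because the control libraries chose them. Of the 8, 2 were called higher than in the other TAA cells, where 4.47% of all genes were. ERO1A (ENSDARG00000015228), the oxidase that feeds disulfide bonds to folding proteins, was at 4.08, 3.60 and 4.71 in EGFP-positive, 2.03 to 3.07 in dsRed-positive and 0.48, 0.70 and 2.21 in mCherry-positive TAA cells. The EGFP-positive libraries were above all others (difference 2.36, standard error 0.46, adjusted p = 0.0134 from limma), and the call was lost in 4 of 12 alternatives, among them those without EGFP-positive TAA replicate 1 or 3. For hspa5 the difference was 0.97 (standard error 0.23, adjusted p = 0.0351), and its 10.26, 10.35 and 10.51 lay inside the 9.53 to 10.70 of mCherry-positive TAA cells, and only 4 of 12 alternatives kept the call. It is 1 of the 30 genes of the stress and immediate early list, of which 23 were called higher and 0 lower in the same comparison, at a median difference of 1.13. That list averaged 8.17 to 8.41 in EGFP-positive, 6.30 to 6.51 in dsRed-positive and 7.25 to 7.68 in mCherry-positive TAA libraries, and its part in the ER calls was not tested. The gene hid1b, which in mammals acts in the making of dense core vesicles, was at 5.18, 5.60 and 5.36 in control and at 1.81, 0.98 and 1.03 in TAA EGFP-positive cells, so that the treatments did not overlap.

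Of the 8 lipid and sterol members, 7 were highest in replicate 3 of the EGFP-positive control group, as were 5171 of the 18336 genes. For 2 members, mvda and ebp, replicate 3 was at least 2 above the next library. For 7 of the 8, every EGFP-positive control library was above the other reporter-positive control libraries, where 6.1% of all genes did so. The choice builds this in, and 77 of the 97 genes had it. The gene mvda (ENSDARG00000099336), mevalonate diphosphate decarboxylase of the cholesterol pathway, was at 2.49, 4.38 and 8.70, and ebp, a sterol isomerase later in that pathway, was at 2.94, 2.80 and 5.92. The low-density lipoprotein receptor gene ldlrb was at 3.55, 4.09 and 5.25. Over the 36 genes of the sterol list the same libraries averaged 4.88, 5.68 and 7.19, and the dsRed-positive control libraries averaged 5.01 to 5.39. Replicate 1 was thus below every dsRed-positive library and replicates 2 and 3 were above them, and the value of mvda in replicate 1 lay inside the 2.46 to 3.90 of dsRed-positive cells.

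None of mvda, ebp and ldlrb passed the test in libraries that did not choose them. After TAA, mvda had 3.18, 2.53 and 3.52 in EGFP-positive cells and 2.32 to 3.16 in the other libraries, which overlap. Of the 36 sterol genes, 0 were called higher and 1 lower in EGFP-positive TAA cells, at a median difference of 0.04, where 4.47% and 2.36% of all genes were called. At an unadjusted p under 0.05 there were 3 higher and 5 lower (11.7% and 9.66% of all genes were). In EGFP-negative cells limma called 0 of 36 in either direction, with 0 higher and 3 lower at an unadjusted p under 0.05 (4.13% and 7.0% of all genes were). Without replicate 3 it called 2 higher and 1 lower (3.96% and 8.93% of all genes), with 10 higher and 3 lower at an unadjusted p under 0.05 (9.06% and 18.3% of all genes). The gene lpin1b, a phosphatidate phosphatase, differed from the rest in being even in the control libraries, at 5.11, 4.66 and 5.80 in EGFP-positive cells and at most 2.77 in the other reporter-positive control libraries, and it alone of the group was taken without each EGFP-positive control library.

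Among the lipid and sterol members that are not on the sterol list, mid1ip1b was called after TAA. In EGFP-negative cells without replicate 3, mid1ip1b, pi4kab and acat2, which encodes an acetoacetyl-CoA thiolase, were called. The gene mid1ip1b (ENSDARG00000019302), whose mammalian counterpart promotes the assembly of acetyl-CoA carboxylase, was at 6.32, 6.70 and 6.57 in EGFP-positive TAA cells, 4.44, 3.67 and 2.81 in dsRed-positive cells and 4.07, 5.01 and 6.30 in mCherry-positive cells. The EGFP-positive libraries were above all others, narrowly so against mCherry-positive replicate 3. The difference was 2.15 (limma, standard error 0.46, adjusted p = 0.0209), a call that was lost without any 1 of the EGFP-positive TAA libraries. It passed against dsRed-positive TAA cells alone (2.90, adjusted p = 0.011) but not against mCherry-positive ones alone (1.41, adjusted p = 0.154). The phosphatidylinositol 4-kinase gene pi4kab was at 7.05, 7.68 and 5.98 in EGFP-negative cells, 3.92 to 4.79 in dsRed-negative and 4.90 to 6.16 in mCherry-negative cells. Without replicate 3 it was 2.28 higher (standard error 0.36, adjusted p = 0.00203), and with it 1.82 (adjusted p = 0.146). For mid1ip1b and acat2 the differences without replicate 3 were 1.38 (adjusted p = 0.00814) and 1.70 (adjusted p = 0.00785), and with it 1.04 (adjusted p = 0.282) and 0.58 (adjusted p = 0.806) from limma. Without replicate 3, neither passed against mCherry-negative cells alone (0.82, adjusted p = 0.131, and 1.19, adjusted p = 0.0763).

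Among the metabolic enzymes was a gene that a single control library chose and that the TAA libraries, which took no part in the choice, also set apart. The glucokinase gene gck (ENSDARG00000068006), which encodes the glucose-phosphorylating enzyme of the liver, was at 1.92, 1.01 and 10.71 in EGFP-positive control cells. Only replicate 3 was high, and the other reporter-positive control libraries spread from -1.25 to 1.73. After TAA, gck was at 4.83, 4.30 and 4.96 in EGFP-positive cells, -0.94, -0.58 and -0.96 in dsRed-positive cells and -0.53, -0.30 and 0.70 in mCherry-positive cells. It was 5.14 higher than the mean of the others (limma, standard error 0.33, adjusted p = 2.16e-05) and was called under all 11 alternatives. In EGFP-negative cells it was at 1.26, 2.22 and 1.80, above dsRed-negative cells (0.14 to 0.97) and inside the range of mCherry-negative cells (0.69 to 4.52).

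EGLN3 (ENSDARG00000032553), a prolyl hydroxylase that senses oxygen, had 5.87, 6.30 and 8.97 in EGFP-positive control cells and the nearly equal values 7.12, 7.15 and 7.10 after TAA. These were above the 4.72 to 6.30 of the other TAA libraries (difference 1.55, standard error 0.23, adjusted p = 0.00313 from limma), and the call was kept in 10 of 12 alternatives. GGACT (ENSDARG00000038248), an enzyme that breaks gamma-glutamyl-lysine cross-links, behaved differently in each comparison. It was at 4.27, 2.87 and 4.26 in EGFP-negative cells and at most 0.32 in the other 6 reporter-negative libraries, and it was called with all libraries (difference 3.72, standard error 0.40, adjusted p = 0.012), a call that was lost in 4 of 11 alternatives, that without EGFP-negative replicate 1 among them. After TAA it was at 3.27, 2.87 and 2.65 in EGFP-positive, 3.52, 3.05 and 2.61 in dsRed-positive and -0.20, -0.03 and 0.07 in mCherry-positive cells. The EGFP-positive and dsRed-positive values overlap, and its call against the mean of both (1.42, adjusted p = 0.0201) went with differences of -0.13 from dsRed-positive (adjusted p = 0.865) and 2.98 from mCherry-positive cells (adjusted p = 0.000712). It was kept in 5 of 11 alternatives and lost without EGFP-positive TAA replicate 1 or 2.

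The UDP-glucuronosyltransferase genes ugt5d1 and ugt5b5 belong to a family of near-identical copies among which reads may be shared, and their values are uncertain to that extent. ugt5b5 (ENSDARG00000104203), which RefSeq lists as a transcribed pseudogene, was at 3.78, 6.13 and 5.47 in EGFP-positive control cells and 2.83, 3.26 and 1.08 after TAA. In dsRed-positive TAA cells it was at 6.63, 6.39 and 5.18, above every other TAA library, and it was called lower in EGFP-positive TAA cells (difference -2.16, standard error 0.50, adjusted p = 0.0306). The call rested on dsRed-positive cells (limma, -3.68, adjusted p = 0.00536), since ugt5b5 did not pass against mCherry-positive ones alone (-0.65, adjusted p = 0.594). It was 1 of 3 genes called lower, with C9H2orf76 (difference -1.21, adjusted p = 0.0471) and ENSDARG00000081580 (difference -2.09, adjusted p = 0.0332). Neither C9H2orf76 nor ENSDARG00000081580 passed against dsRed-positive TAA cells alone (limma, adjusted p = 0.131 and 0.234). None of the 3 calls held without EGFP-positive TAA replicate 3.

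**Figure D4:**
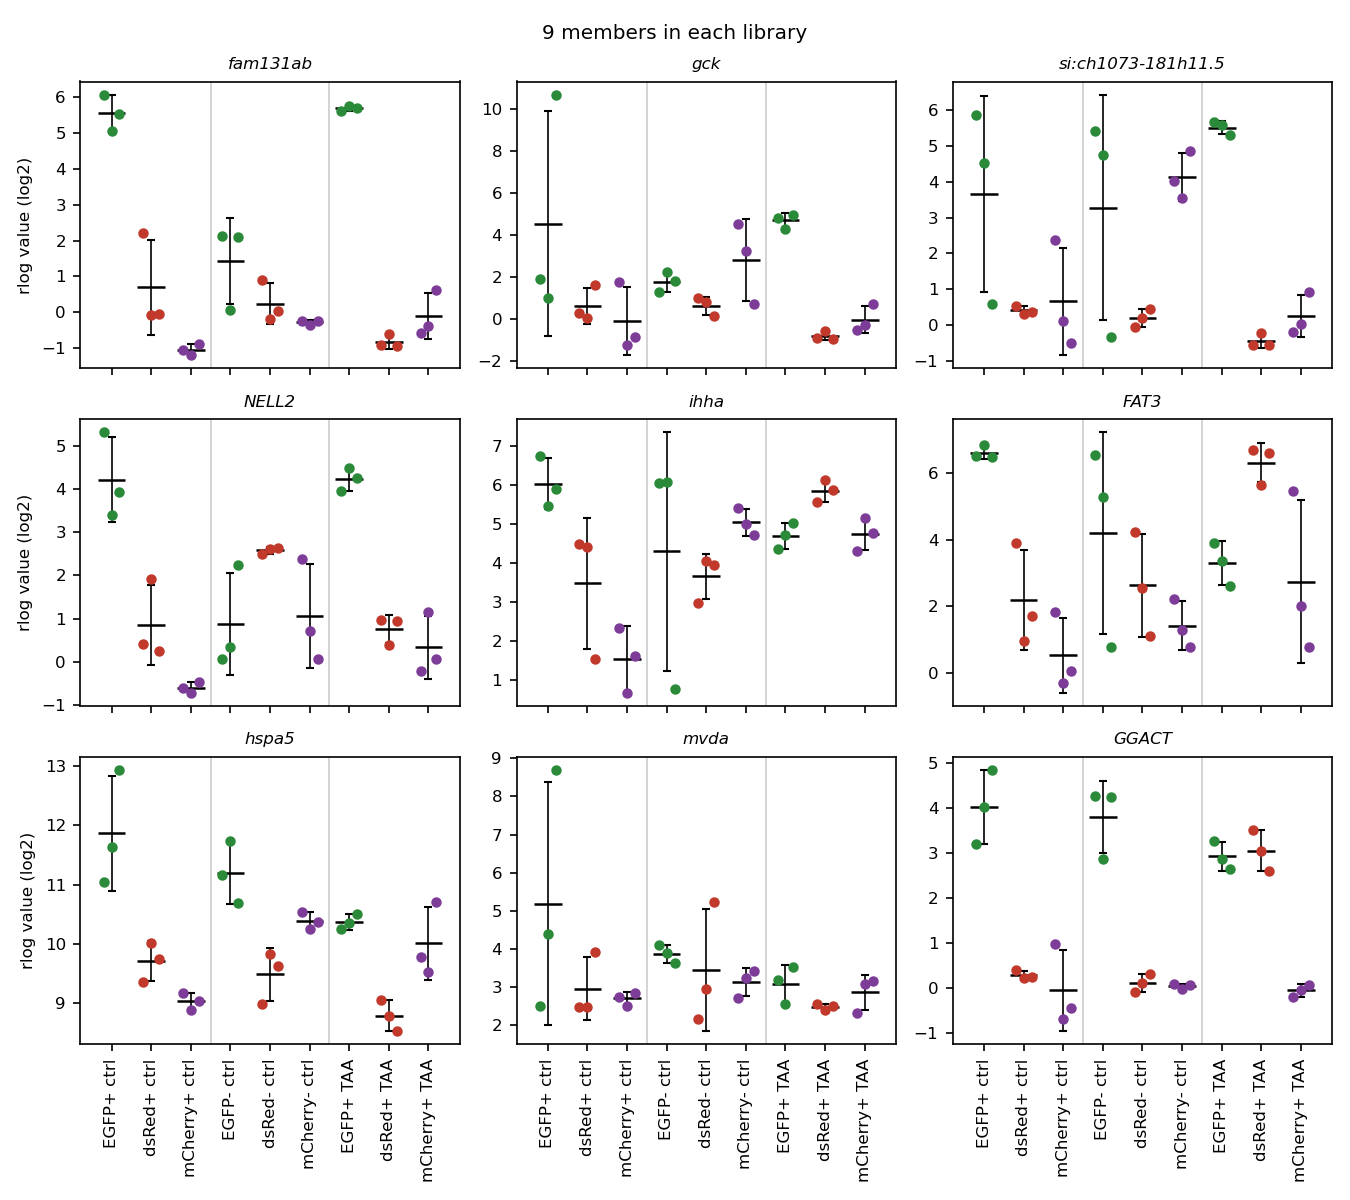
Values of 9 EGFP-control genes in each of the 27 libraries, in rlog units (log2, vertical axes of different range). Points are libraries, with replicates 1 to 3 from left to right, lines are group means and bars are SD (n = 3). fam131ab, si:ch1073-181h11.5, gck and NELL2 were high in the 3 EGFP-positive TAA libraries, where they were 3.95 or more, whereas gck and mvda reached 10.71 and 8.70 in EGFP-positive control replicate 3.

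The 7 noncoding RNA members were 4 genes named Metazoa_SRP, the RNA of the signal recognition particle, with RNaseP_nuc, the RNA of ribonuclease P, rnu2 of the spliceosome and zgc:158463, listed by RefSeq as a ribosomal RNA. Ribosomal RNA was removed in the laboratory and from the reads, and these genes have near-identical copies between which reads can be divided, so the values are uncertain. They averaged 8.56, 9.05 and 9.35 in EGFP-positive control, 7.30 to 8.02 in EGFP-negative and 7.71, 7.64 and 7.88 in EGFP-positive TAA cells. The mCherry-positive TAA libraries, at 7.06, 7.18 and 8.59, overlapped with the last of these. Of the 7, 1 was called higher after TAA, and of the 205 noncoding RNA genes 11 were higher and 8 lower, where 4.47% and 2.36% of all genes were. This was ENSDARG00000114737, a Metazoa_SRP gene (difference 1.59, adjusted p = 0.048), whose difference from mCherry-positive TAA cells was 0.02 (adjusted p = 0.995), and the call was lost in 8 of 12 alternatives, among them those without any 1 of the EGFP-positive TAA libraries. Without EGFP-negative replicate 3, 3 of the 7 and 15 of the 205 were called higher in EGFP-negative cells, where 3.96% of all genes were. In that fit 0 of the 7 and 10 of the 205 were called lower, where 8.93% of all genes were. With all libraries 0 of the 7 and 0 of the 205 were called higher (0.0873% of all genes), and 2 of the 205 lower (0.224% of all genes). At an unadjusted p under 0.05 with all libraries, 5 of the 7 and 11 of the 205 were higher (4.13% of all genes). In the same fit 0 of the 7 and 15 of the 205 were lower (7.0% of all genes). Without replicate 3, 7 of the 7 and 40 of the 205 were higher (9.06% of all genes), and 0 and 21 lower (18.3% of all genes).

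The 24 genes without a symbol cannot be given a role. ENSDARG00000116751 was at 8.88, 13.37 and 9.47 in EGFP-positive control cells, 8.32, 9.34 and 7.86 in EGFP-negative cells and 4.74 to 5.89 in the other reporter-negative libraries. It was called higher in EGFP-negative cells with all libraries (difference 3.23, standard error 0.35, adjusted p = 0.012) and in EGFP-positive TAA cells (5.16, 4.65 and 4.72 against 2.36 to 3.95, difference 1.51, standard error 0.27, adjusted p = 0.0096). The second call was lost in 4 of 12 alternatives, that without EGFP-positive TAA replicate 1 among them. The first was lost in 4 of 12, that without EGFP-negative replicate 1 among them. Against mCherry-positive TAA cells alone the gene did not pass (limma, 1.11, adjusted p = 0.0623). ENSDARG00000098856 was called in EGFP-positive TAA cells under all 12 alternatives, at 4.87, 4.65 and 4.95 against 1.17 to 3.78 elsewhere (difference 2.28, standard error 0.27, adjusted p = 0.000845). ENSDARG00000114910 was at 17.35, 21.59 and 18.97 in EGFP-positive control cells and at 18.57, 18.18 and 16.88 in mCherry-negative cells, which overlap. Of the 24 genes, 18 were highest in EGFP-positive control replicate 2, as were 7921 of the 18336 genes.

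Of the 24 other named genes, 3 were called higher and 1 lower after TAA, where 4.47% and 2.36% of all genes were. The odorant receptor gene or42a4 (ENSDARG00000105708) was at 3.42, 2.98 and 2.71 in EGFP-positive control cells, 4.93, 3.40 and -0.28 in EGFP-negative cells and 4.52, 4.92 and 4.54 after TAA, when the other cell types had 0.11 to 3.25. Its difference of 3.10 passed narrowly (standard error 0.78, adjusted p = 0.0419 from limma), and only 2 of 11 alternatives kept the call. It did not pass against dsRed-positive (adjusted p = 0.0535) or mCherry-positive TAA cells alone (adjusted p = 0.0957). The gene si:ch211-119o8.8 rested on replicate 1 of the hand2 line, at 6.57, 0.54 and 0.04 in EGFP-positive and 3.63, -0.06 and -1.52 in EGFP-negative control cells, and was at or under -1.19 in every TAA library.

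TAA and control values of the 97 genes are set side by side here without a test, since the control libraries chose the genes and a fall in EGFP-positive cells is in part built in. In EGFP-positive cells 82 of the 97 genes had a lower mean after TAA, as did 9852 of the 18336 genes. The median difference was -1.49 where all genes had -0.06, and for 59 genes every control library was above every TAA library (18.7% of all genes). For 2 genes, rnasel2 and or42a4, every TAA library was above every control library (12.7% of all genes). The median was -0.06 in dsRed-positive cells, against -0.02 over all genes, with 22 genes wholly higher and 24 wholly lower after TAA (12.8% and 17.9% of all genes), and 1.31 in mCherry-positive cells, against -0.25. In mCherry-positive cells 56 genes (57.7%, against 25.4% of all genes) had every TAA library above every control library and 1 gene (36.6% of all genes) had the opposite, beside the rise of the hepatocyte markers in these libraries from 9.05 to 13.18 on average, and the part of that rise in the result was not tested.

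EGFP-positive and EGFP-negative control cells are likewise only described. The 97 genes averaged 5.45, 5.99 and 6.14 in EGFP-positive libraries and 4.90, 4.80 and 3.62 in EGFP-negative ones. The median difference was 1.33 with all libraries and 0.79 against EGFP-negative replicates 1 and 2, and over all genes it was -0.08 and 0.05. For 24 genes all EGFP-positive libraries were above all EGFP-negative ones (24.7%, against 6.41% of all genes), and for 26 they were above replicates 1 and 2 (19.1% of all genes). The dsRed-positive control libraries averaged 3.03, 2.98 and 3.39 over the 97 genes, below all EGFP-negative libraries. They took part in the choice, which favours genes that are low in them, so this order is in part built in.

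The same ranking was applied to the other cell types, and the distances in control and TAA libraries are again only described. Each set was chosen for a long distance in the control libraries, so a shorter one in the TAA libraries is in part built in. The mCherry-positive TAA libraries also had the low endothelial and high hepatocyte markers given above. The 100 genes ranked highest for mCherry-positive control cells had a median distance of 6.08 to the next cell type, and after TAA it was -1.05, with 9 of 100 still highest in that cell type (30.8% of all genes were). For the 100 genes of dsRed-positive cells it was 2.33 and -0.27, with 34 still highest (37.2% of all genes). For the EGFP-control genes it was 2.45 and -0.01, with 48 of 97 still highest (49.5%, against 32.1% of all genes). The spread between replicates of the choosing group was widest for the EGFP-control genes, with a median SD of 1.0 against 0.63 for the dsRed set and 0.19 for the mCherry set, where all genes had 0.49, 0.41 and 0.32. The same libraries chose each set, so these spreads can in part be a product of the choice.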

How the data were processed

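RNA was extracted with TRIzol from sorted liver cells, depleted of ribosomal RNA and made into libraries with a SMARTer low input kit. The authors' notes name FastQC 0.11.8, cutadapt 1.18, STAR 2.6 and SAMtools 1.9, with reads aligned to GRCz11, and their methods also name rRNAdust. The authors deposited log2 rlog values made with DESeq2, for 18336 genes by 27 libraries, from -2.62 to 22.57, and the rlog shrinks low counts. Read counts and depth per library are not used here, so no counting interval is given.

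All values came from this 1 table. Members were ranked on means of 3 libraries. The TAA and the reporter-negative comparisons were each fitted to their own 9 libraries with limma 3.58.1 in R 4.3.3 (group means, moderated with a trend), and p was adjusted by Benjamini-Hochberg over 18336 genes with a threshold of 0.05. The fits were tested on simulated data. Tables were handled in Python 3.11.15 (pandas 2.3.3, numpy 2.4.6), with figures from matplotlib 3.10.9. Symbols were matched for 17235 genes and for 73 of the 97 members, and roles and biotypes beyond the symbols were set by hand or taken from RefSeq.

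The members and lists were chosen with earlier results of these data known. The genes to be named were the 20 highest ranked, the members in a list, the 10 with the largest called differences and those at the edge of the ranking, and other members named were chosen after their values were seen. Alternatives were all 27 libraries in 1 fit, no trend, a mean of at least 3, median centring, quantile normalization, a size minimum of 1, the replicate number as a block, and each replicate or library left out. A promoter motif search was not run. The values of 1 secreted member are not reported here by name.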

Additional observations from a re-analysis of the deposited data

How the results depend on the processing

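In the TAA comparison, the count of members higher (15) was 7 with all 27 libraries in 1 fit, 6 where the call had to hold against each other cell type, 6 to 12 without each replicate number and 6 to 11 without each EGFP-positive TAA library. The count lower (3) was 0 with all 27 libraries, 1 with a mean of at least 3 and 0 to 2 with a replicate or library left out. Over all genes, 820 higher became 333 with all 27 libraries, 483 with a mean of at least 3 and 283 to 585 with a replicate or library left out, and 433 lower became 104 and 65 to 174. Members higher than each other cell type (6) were 3 with all 27 libraries, and the median difference of 0.38 was 0.62 with a mean of at least 3.

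In the reporter-negative comparison, 3 members higher became 10 with all 27 libraries, 1 with a mean of at least 3 and 0 to 38 with a replicate or library left out, where 36 was the value without EGFP-negative replicate 3. Over all genes, 16 higher became 185, 5 and 0 to 727, and 41 lower became 528, 12 and 0 to 1638 under the same alternatives. Members higher than each other line (2) were 0 with a mean of at least 3 and 0 to 12 with a replicate or library left out. Differences changed sign for angptl8 (0.14 centred, and from -1.43 to 2.08 with a replicate or library left out) and ihha (0.11, and from -1.003 to 1.70).

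With the replicate number as a block, 1 member was lower after TAA, and in the reporter-negative comparison 0 members and 0 genes were called in either direction, with 0 members higher than each other line. Within each comparison, same-numbered libraries of different lines did not deviate together (mean correlation over genes -0.068 to 0.012). Same-numbered libraries with and without the reporter from the same line were not compared, so whether those are paired was not tested.

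The ranking took 58 of the 97 members with medians. A mean of at least 3 over the 27 libraries was reached by 55 members, which is a filter and not a repeat of the ranking. The median TAA minus control difference in EGFP-positive cells (-1.49) was -2.29 over the 34 members taken without each EGFP-positive control library. In dsRed-positive cells (-0.06) it was 0.048 after quantile normalization, and in mCherry-positive cells (1.31) it was 1.89 centred and 1.79 quantile normalized. The causes of these shifts were not tested. With 3 libraries a group and no read counts, the spread of low values is limited by the rlog and cannot be set against counting error.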
